A study of Mus musculus with 15 samples.

Results

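Livers of Fkbp5-/- (KO) mice on the control diet were compared with livers of wild-type (WT) mice on the same diet, across all 45861 genes of the deposited expression table, of which 13840 were expressed enough to be tested. KO control comprised 3 libraries and WT control 4 libraries, assigned by title, out of 15 libraries in the series. All mice were C57BL/6 according to the labels, and their ages were not analysed here. Control-diet mice, KO and WT alike, had a liquid diet without ethanol for the feeding period and a gavage of maltose, and liver was taken 9 h after the gavage. The other 8 libraries, KO ethanol (4) and WT ethanol (4), came from mice that reached 5% ethanol in the diet, were held there for 10 days and then received 5 g/kg ethanol by gavage. They share no library with the control-diet comparison and serve below as a look at the same genotype difference in other mice. All 15 libraries were fitted together, so both comparisons use the same estimate of spread for each gene. Their p-values are therefore not independent. The labels give no cell type or promoter for the deletion, no litter, and no statement on how the KO line was backcrossed. One library of WT ethanol, replicate 4, is WT by title while another label of it says Fkbp5 knockout. Its 45.2 FPKM of Fkbp5 lay within the range of the other WT ethanol libraries, and it was kept as WT.

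Fkbp5 encodes FKBP51, an immunophilin that joins HSP90 as a co-chaperone of steroid hormone receptors. Bound to the glucocorticoid receptor, it lowers hormone affinity and delays entry into the nucleus, and the gene is itself induced by that receptor, which makes a short negative feedback loop. FKBP51 also acts as a scaffold for kinases and phosphatases. In liver, glucocorticoid signalling supports gluconeogenesis, amino acid breakdown and the restraint of inflammation. The study's title names the Hippo pathway, which controls the co-activator YAP, and the neutrophil chemokine Cxcl1, so genes of both were among the lists examined.

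Expression was given as FPKM, a fragment number scaled by transcript length and by library size. A listed 0 can be a failed estimate, since albumin was listed at 0 in KO ethanol replicate 3. An estimate from the spacing of low values put the libraries at 22.7 to 29 M fragments. KO control replicate 1 stood apart. Its 10 highest genes held 59.3% of its summed FPKM, against 19.7% to 28.5% in the other 14 libraries, and the 7S RNA gene Rn7s1 was listed at 183764 FPKM there and at 0 in all others. Correlations between replicates across tested genes ran from 0.922 to 0.946 in KO control and from 0.922 to 0.977 in WT control. Xist, the RNA that silences an X chromosome in females, was high in 2 of 3 KO control and 2 of 4 WT control libraries, and the labels do not give the sex of the mice. Albumin, the defining hepatocyte product, was at 12627 to 19019 FPKM in KO control livers and 11793 to 15278 FPKM in WT control livers.

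Several results below set a gene beside its near-identical copy. The clearest case was glyoxalase 1 (Glo1), a chromosome 17 gene near Fkbp5, and Gm13443, named Glo1-ps in RefSeq, a processed copy on chromosome 2. Both were higher in KO control livers. The copy aligned to a Glo1 transcript over 555 bases at 99.46% identity.

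Fkbp5 itself lies on chromosome 17 (chr17:28398753-28486149). It was measured at 1.07, 1.56 and 0.351 FPKM in KO control livers, against 15.2, 9.96, 5.77 and 3.27 FPKM in WT control livers. Every KO value was below every WT value, and the 2 Xist-high WT livers were the highest. KO livers averaged 0.995 ± 0.61 FPKM (SD, n = 3) and WT livers 8.55 ± 5.22 FPKM (SD, n = 4), so that 11.6% of the WT level remained. The difference on the log2(FPKM + 1) scale was -2.13 (SE 0.42, 95% interval -3.03 to -1.24), and limma gave an adjusted p of 0.0702 across all genes tested. An exact two-sided permutation test of the means gave p = 0.0571, which is the smallest value that 35 splits of 7 libraries allow. Without WT control replicate 4, the lowest WT library, limma's adjusted p was 0.0149. In the ethanol-fed groups the same genotype difference was -3.12, with a limma adjusted p of 0.00568. The estimated number of fragments behind Fkbp5 was 31.3 to 138 in KO control livers and 344 to 1580 in WT control livers. Which part of the gene was deleted is not given in the sources used here.

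A gene was called when its adjusted p was under 0.05 in limma on log2(FPKM + 1), over 13840 genes that reached 1 FPKM in 3 or more libraries. Few genes separated the genotypes: 25 were called on the control diet, 0.181% of those tested, of which 10 were higher (0.0723%) and 15 lower (0.108%) in KO. After rescaling to a common sum 2 were higher and 23 lower. The median of all genes was then -0.23 on the log2 scale, against 0.03 as deposited. That rescaling lowers KO control replicate 1 most, since its summed FPKM was 790741, against 416837 to 525108 in the other libraries. After quantile normalization 10 were higher and 5 lower. The directions held different kinds of gene. Of the 10 higher genes, 8 lay on chromosome 17 or were near-identical copies of a chromosome 17 gene, and the others were Ctse and Snora7a. Of the 15 lower genes, 8 were on the acinar marker list of the exocrine pancreas, and the others were amylase genes, Pnliprp1, Zg16 and 2210010C04Rik. In all 25 the KO and WT control libraries did not overlap, which held for 6.81% of tested genes. Without overlap the sign must be the same within the Xist-high and within the other libraries, so that sameness is no separate check on sex. The count depended on the libraries fitted. With only the 7 control-diet libraries it was 4, of which 2, Ctse and Gm13443, were among the 25. It was 1 without KO control replicate 2, and 2 without KO control replicate 3, WT control replicate 1, 2 or 3, or KO ethanol replicate 1 or 2. It was 11 without KO ethanol replicate 3 and 50 without KO control replicate 1. With WT ethanol replicate 4 placed with KO ethanol, as its other label says, it was 14, of which 1 was higher in KO. Gm13443 was called with each of the 15 libraries left out in turn and Ctse with 14, the exception being KO control replicate 2 (adjusted p = 0.0755). For the lower genes the largest unadjusted limma p over these 15 fits was 0.000568 and the largest adjusted p was 0.271. Each lower gene was called in 2 to 8 of the 15 fits.

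**Figure D1:**
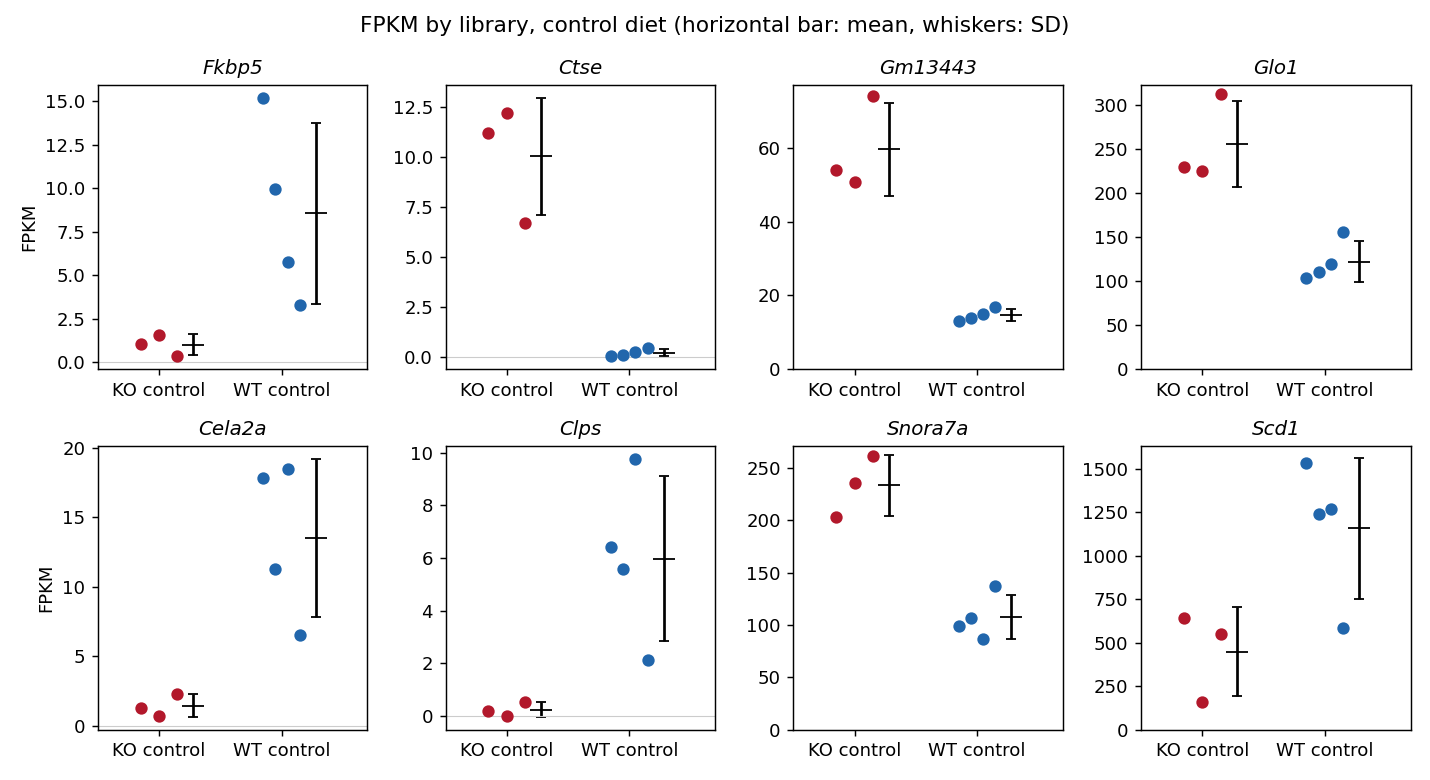
FPKM of 8 genes by library on the control diet, KO control (3 libraries, red) left of WT control (4 libraries, blue), with the mean as a horizontal bar and the SD as whiskers. Fkbp5, Cela2a and Clps were lower in every KO library, Ctse, Gm13443, Glo1 and Snora7a were higher in every KO library, and Scd1 overlapped between the groups.

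Ctse, which encodes the aspartic protease cathepsin E, a product mainly of stomach and immune cells, had the largest called increase. It measured 11.2, 12.2 and 6.69 FPKM in KO control livers, against 0.0538, 0.0912, 0.224 and 0.428 FPKM in WT control livers. The lowest KO liver was still far above the highest WT liver. The mean was 50.4 times the WT mean, and the log2 difference was 3.17 (SE 0.37), with a limma adjusted p of 0.00596. Ethanol-fed mice had Ctse at 9.09, 3.38, 19.6 and 7.14 FPKM in KO livers, against 0.0212, 0.0188, 0.174 and 0.0621 FPKM in WT livers, and the log2 difference was 3.12 (adjusted p = 0.00298 in limma).

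Ren1, which encodes the aspartic protease renin, made chiefly by the kidney, lies 1.71 Mb from Ctse on chromosome 1. It was at 0.792, 4.01 and 1.06 FPKM in KO control livers, against 0.0282, 0.0286, 0.205 and 0 FPKM in WT control livers. The groups did not overlap, yet the log2 difference of 1.32 (95% interval 0.15 to 2.48) had a limma adjusted p of 1. Ren1 in ethanol-fed mice was at 5.31 to 42.9 FPKM in KO livers, against 0 to 0.273 FPKM in WT livers, a log2 difference of 4.31 with an adjusted p of 0.00387. Among 80 other genes tested within 5 Mb of Ctse, Ren1 included, 4 had an unadjusted p under 0.05 on the control diet (5%, against 4.23% of all genes) and 3 on the ethanol diet (3.75%, against 5% of all genes), so the neighbourhood as a whole was at the background share. Pm20d1, an enzyme of N-acyl amino acid synthesis, lies between Ctse and Ren1. It was at 34, 30 and 29.7 FPKM in KO control livers, against 22, 21.8, 21.6 and 21 FPKM in WT control livers. The log2 difference was 0.51 with a limma adjusted p of 0.636. In ethanol-fed mice it was at 32.4, 22.7, 37.6 and 32.6 FPKM in KO livers, against 18.6, 22, 13.4 and 20.5 FPKM in WT livers. There the log2 difference was 0.72 (unadjusted p = 0.000515 and adjusted p = 0.236 in limma). Its groups did not overlap on either diet.

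On chromosome 17 the called genes were Dynlt1b and Dynlt1c at about 22 Mb before Fkbp5, 9030025P20Rik at 13.4 Mb before it, Clps 0.159 Mb after it and Glo1 2.19 Mb after it. Glo1, which detoxifies methylglyoxal with glutathione, measured 229, 225 and 312 FPKM in KO control livers, against 103, 110, 119 and 156 FPKM in WT control livers. Its mean was 2.09 times the WT mean, with a log2 difference of 1.06 (SE 0.16) and a limma adjusted p of 0.0284. Rescaled to a common sum, which lowers KO control replicate 1 most, Glo1 had a limma adjusted p of 0.546. Dynlt1b, a Tctex-type dynein light chain, was at 3.58, 4.7 and 4.36 FPKM in KO control livers, against 1.57, 1.72, 1.43 and 1.39 FPKM in WT control livers, a log2 difference of 1.04 (adjusted p = 0.0284 in limma). The Dynlt1 genes are near-identical in sequence, so reads could be split among them. Their sum, with the chromosome 6 copy Dynlt1-ps1, was 13.1, 16.1 and 14.1 FPKM in KO control livers, against 6.1, 6.79, 5.65 and 5.23 FPKM in WT control livers. That sum was higher in every KO library than in any WT library. 9030025P20Rik, whose transcript matches its neighbour Ermard at 99.34% identity, was at 6.62, 7.69 and 7.49 FPKM in KO control livers, against 3.24, 3.21, 1.85 and 2.97 FPKM in WT control livers (log2 difference 1.13, adjusted p = 0.0328 in limma). The groups did not overlap, and reads of the near-identical pair could be split between them.

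Of 683 chromosome 17 genes tested, 10.5% had an unadjusted p under 0.05 on the control diet, against 4.23% of all genes. By distance from Fkbp5 the share was 23.8% at 20 to 30 Mb before it, 23.1% at 10 to 20 Mb before it, 9.2% within 10 Mb on either side, 12.5% at 10 to 20 Mb after it, 9.41% at 20 to 40 Mb after it and 1.9% at 40 to 70 Mb after it. Within 1 Mb it was 6.25%, 2 of 32 genes. The next highest autosome, chromosome 8, had 6.93%. At an unadjusted p under 0.001, 16 chromosome 17 genes (2.34%) differed, against 0.455% of all genes and 0.357% of those on other chromosomes. They lay between 25.1 Mb before and 21 Mb after the start of Fkbp5, with 9 higher and 7 lower in KO. They include Fkbp5 itself and the acinar gene Clps, and they are not independent, since Dynlt1a, Dynlt1b, Dynlt1c and Dynlt1f are near-identical and 9030025P20Rik, Gm3255 and Gm3435 lie close together. All 16 had the same sign and an unadjusted p under 0.05 on the ethanol diet, in separate mice, while 9 of the 47 such genes on other chromosomes did. These shares are not a like comparison. Apart from Clps, the acinar genes called lower are among the 47, and they were low in both genotypes on the ethanol diet. The 9 include Gm13443, Gm6576, LOC108169072 and Dynlt1-ps1, copies of chromosome 17 genes. The p-values on both diets also share the estimate of spread.

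Several of these neighbours separated the control-diet libraries by genotype without passing the threshold. Abca3, a lipid transporter of lamellar bodies, was at 36.6, 39.3 and 36 FPKM in KO control livers, against 21.1, 21.5, 12 and 11.5 FPKM in WT control livers (log2 difference 1.18, limma adjusted p = 0.0702). Snhg9, a small nucleolar RNA host gene beside Rps2, was listed at 0, 1.88 and 0 FPKM in KO control livers, against 3.17, 4.85, 4.96 and 9.46 FPKM in WT control livers. It was listed at 0 in all 4 KO ethanol livers, against 3.43 to 14.9 FPKM in WT ethanol livers, where it was called. Tiam2, a Rac exchange factor, had a log2 difference of -1.25 (adjusted p = 0.0548 in limma) and Atp6v0c, the proteolipid ring subunit of the vacuolar proton pump, one of -0.66 (adjusted p = 0.127). Both were lower in every KO control library than in any WT control library.

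**Figure D2:**
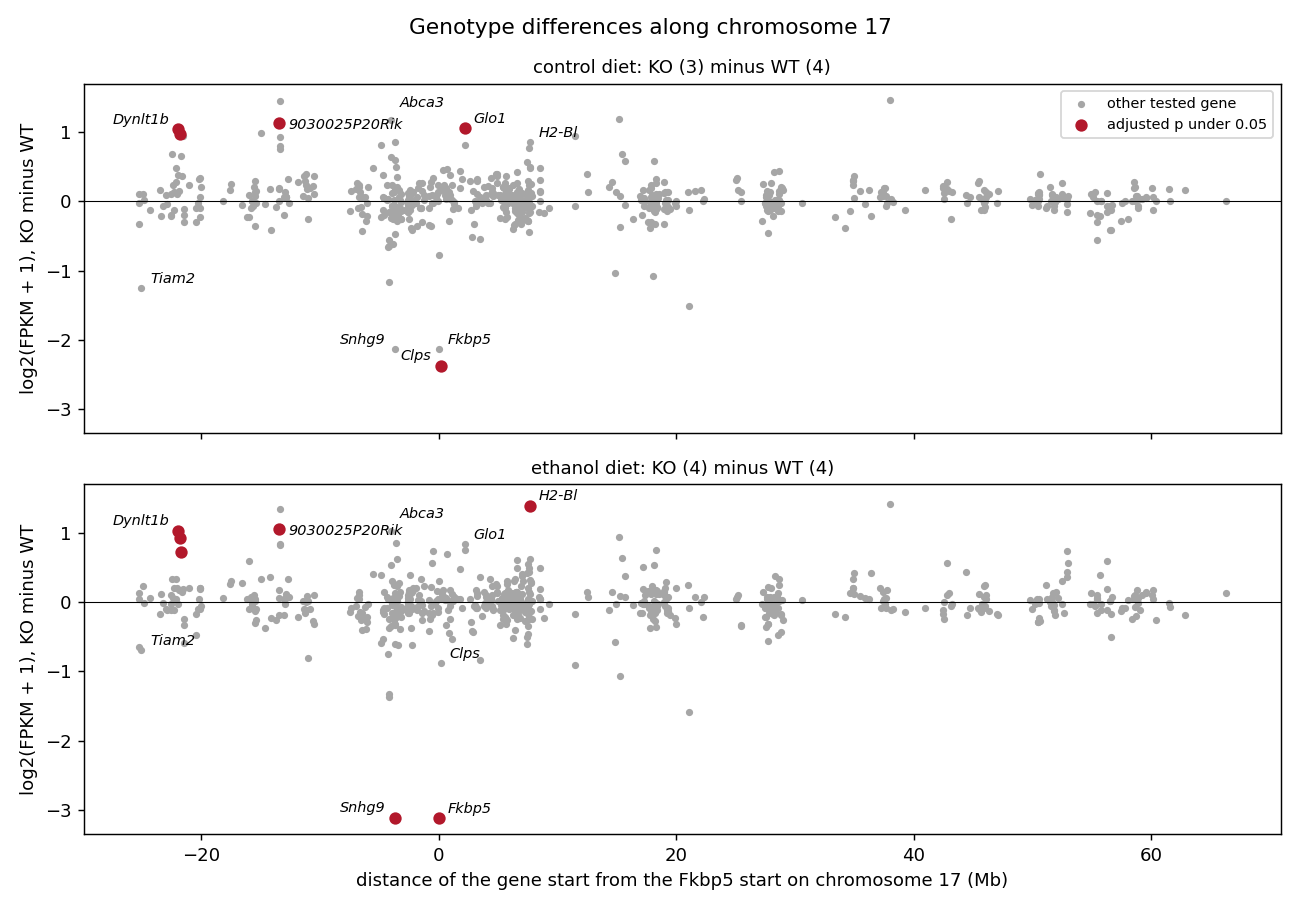
Log2(FPKM + 1) differences, KO minus WT, of tested chromosome 17 genes against distance in Mb of the gene start from the Fkbp5 start, on the control diet (top) and the ethanol diet (bottom); red points are genes with an adjusted p under 0.05. Called genes lie between Dynlt1b and H2-Bl, the rightmost of them, and Dynlt1b and 9030025P20Rik had nearly the same difference on both diets (1.04 and 1.13 on the control diet, 1.03 and 1.05 on the ethanol diet).

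Pseudogenes elsewhere in the genome that copy chromosome 17 genes made up 4 of the 10 higher genes. Gm13443 (chr2:35340338-35340987) was at 54, 50.8 and 74.1 FPKM in KO control livers, against 13.1, 13.7, 14.8 and 16.7 FPKM in WT control livers. Its log2 difference was 1.95 (SE 0.13), with a limma adjusted p of 2.04e-05. The ratio of Gm13443 to Glo1 was 0.225 to 0.237 in KO control livers and 0.107 to 0.128 in WT control livers, and the ranges did not overlap. Gm6576 on chromosome 15 and LOC108169072 on chromosome 5, copies of the ribosomal protein gene Rps2 at 97.62% and 98.87% identity, were higher by 0.64 and 0.57 on the log2 scale, each with an adjusted p of 0.0328 in limma. Rps2 itself was at 127, 120 and 133 FPKM in KO control livers, against 133, 127, 156 and 153 FPKM in WT control livers (log2 difference -0.16, 95% interval -0.41 to 0.09). Dynlt1-ps1, whose aligned 342 bases equal Dynlt1c, was higher by 0.77 (adjusted p = 0.0348 in limma). Of the 32 tested pseudogenes off chromosome 17 that copy a gene within 25 Mb of Fkbp5, 4 were called (0.181% of all genes), and 14 (43.8%) had an unadjusted p under 0.05 and higher values. Copies of genes on other chromosomes leaned the same way: of 578 tested, 0 were called in limma, but 94 (16.3%) had an unadjusted p under 0.05 and higher values and 17 (2.94%) lower ones, against 3.01% and 1.22% of all genes.

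The ratio of a copy to its gene separated the genotypes in all 15 libraries for many of these pairs. Among those 32 pairs, 16 (50%) had a higher ratio in every KO library than in any WT library, on both diets. Of 563 pairs whose gene lay on another chromosome, 5 did (0.888%). In neither set was the ratio lower in every KO library for any pair. The 16 pairs are not independent, since 12 are copies of Rps2, and they rest on 4 of the 15 genes that have such copies, Glo1, Rps2, Rnps1 and Atp6v0c. Atp6v0c-ps2 over Atp6v0c was 1.36 to 1.47 in KO control livers and 0.583 to 0.606 in WT control livers. In that pair the gene was lower in each KO library (28.1, 23.8 and 21.8 FPKM, against 36.7, 37.2, 43.2 and 40.2 FPKM in WT control) and the copy higher in each (38.2, 33.5 and 32.2 FPKM, against 21.9, 21.7, 25.9 and 24.4 FPKM). WT ethanol replicate 4, whose labels differ on genotype, had a Gm13443 to Glo1 ratio of 0.119 and an Atp6v0c-ps2 to Atp6v0c ratio of 0.583, within the WT ranges. The deposited values do not tell a copy's own RNA from reads of its gene placed on the copy.

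**Figure D3:**
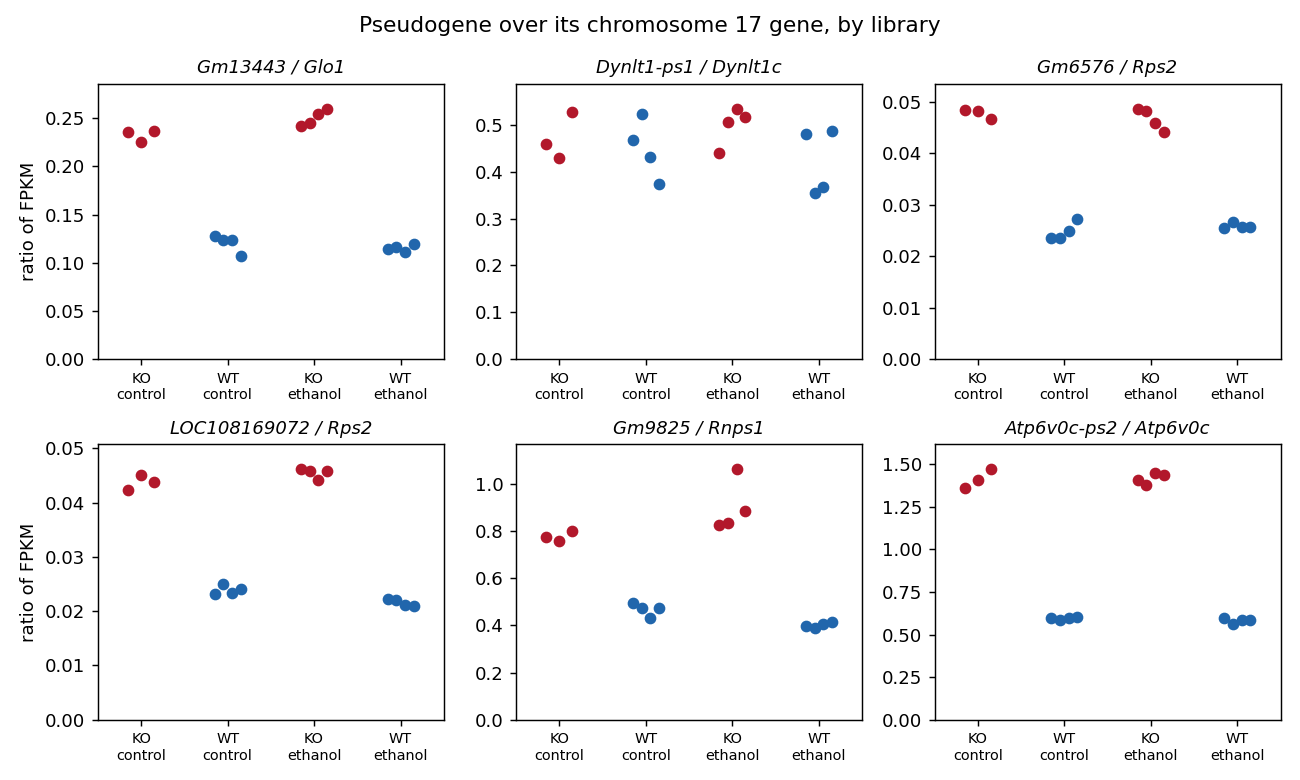
Ratio of FPKM of a pseudogene to that of its chromosome 17 gene in each of the 15 libraries, with KO groups in red and WT groups in blue. For Gm13443 over Glo1 the KO control points (0.225 to 0.237) lie above the WT control points (0.107 to 0.128), 4 other pairs also separate by genotype on both diets, and Dynlt1-ps1 over Dynlt1c overlaps.

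Snora7a, the other higher gene besides Ctse that is neither on chromosome 17 nor such a copy, is an H/ACA small nucleolar RNA, a class that guides pseudouridylation of ribosomal RNA, and lies within the span of the ribosomal protein gene Rpl32 on chromosome 6. It was at 203, 236 and 261 FPKM in KO control livers, against 99.3, 107, 86.8 and 137 FPKM in WT control livers, a log2 difference of 1.12 (adjusted p = 0.0288 in limma). Rpl32 was at 201, 186 and 172 FPKM in KO control livers, against 158, 152, 163 and 165 FPKM in WT control livers (log2 difference 0.22, adjusted p = 1 in limma). On the ethanol diet the Snora7a difference was -0.05, and the difference between diets was -1.17 with a limma interaction p of 0.000214 (adjusted p = 0.309).

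The 15 lower genes encode digestive enzymes and other acinar cell products that are stored in zymogen granules and released into the gut. They were the elastases Cela2a and Cela3b, the trypsinogen Prss2 and the trypsinogen-like 2210010C04Rik, carboxypeptidase B1 (Cpb1), the amylases Amy2a1 to Amy2a5, carboxyl ester lipase (Cel), colipase (Clps), pancreatic lipase-related protein 1 (Pnliprp1), pancreatic ribonuclease (Rnase1) and the zymogen granule protein Zg16. Their log2 differences ran from -2.51 to -1.33, with limma adjusted p values from 0.0284 to 0.0408, and KO means were 4.2% to 10.8% of WT means. Cela2a measured 1.31, 0.748 and 2.33 FPKM in KO control livers, against 17.8, 11.3, 18.5 and 6.51 FPKM in WT control livers (log2 difference -2.51, adjusted p = 0.0328 in limma). Cpb1 measured 0.0857, 0 and 0.466 FPKM in KO control livers, against 5.03, 3.17, 5.39 and 1.84 FPKM in WT control livers (log2 difference -1.99, adjusted p = 0.0284 in limma). All 4 WT livers were above all KO livers for both genes, and KO control replicate 3 was the highest KO liver for each. The amylase genes Amy2a2, Amy2a3 and Amy2a4 are identical over 3717 aligned bases and count as 1 measurement. All 15 passed the filter on low values through WT libraries, since none reached 1 FPKM in 3 KO libraries. None of the 15 was called with a pseudocount of 0.1, with a mean of at least 5 FPKM required, or in a fit on only the 7 control-diet libraries, and 3 of them were called with no filter on low values. The count of all lower calls, not only of these 15, was also 0 without KO control replicate 2 or 3, WT control replicate 1, 2 or 3, or KO ethanol replicate 1 or 2. It was 3 without KO control replicate 1 or KO ethanol replicate 3, 7 without KO ethanol replicate 4 or WT ethanol replicate 2 or 3, and 23 without WT control replicate 4. Of the 15 themselves, 2 stayed called without KO control replicate 1, 6 without WT ethanol replicate 3 and 15 without WT control replicate 4. Over the 15 fits that each left out 1 library, the log2 differences stayed between -2.84 and -1.22.

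The 15 genes varied together across libraries. Their summed level was 2.96, 2.78 and 10.1 FPKM in KO control livers, against 89.6, 56.1, 102 and 29.6 FPKM in WT control livers. The whole acinar marker list, of which 14 of 18 members were tested, had 8 called lower, 13 with an unadjusted p under 0.05 and lower values (1.22% of all genes) and a median log2 difference of -1.98, against 0.03 for all genes. Of the 14, 13 passed the filter only through WT libraries, the exception being Cela1, so this count and median describe members selected where WT was high and are no support for a difference. Cela1 was at 7.16, 4.97 and 13.1 FPKM in KO control livers, against 12, 8.78, 15.7 and 15 FPKM in WT control livers. Those groups overlapped. The other 4 members, Prss1, Ctrc, Pla2g1b and Reg1, were too low to be tested. The summed level of the list was 8.25 to 27.4 FPKM in KO control and 49.1 to 135 FPKM in WT control livers. Members just outside the threshold were Ctrb1, a chymotrypsinogen, at 0.38, 0.656 and 2.3 FPKM in KO control livers, against 20.1, 11.4, 19.2 and 4.7 FPKM in WT control livers (adjusted p = 0.0702 in limma), and Pnlip, pancreatic lipase (adjusted p = 0.0946). Of the acinar regulators, looked up after the enzyme values were seen, Ptf1a was listed at 0 in all 3 KO control livers and at 0.0264 FPKM or 0 in WT control livers. Nr5a2, the only one tested and also a hepatocyte gene, was at 16.6, 15.6 and 12.5 FPKM in KO control livers, against 15.5, 17.1, 11.6 and 15.5 FPKM in WT control livers. Bhlha15 was at 0.158, 0.0744 and 0.0368 FPKM in KO control livers, against 0.125, 0.0531, 0.0978 and 0.307 FPKM in WT control livers, and the groups of both overlapped. Rbpjl was at or below 0.0179 FPKM in KO control livers and at 0.0317 to 0.198 FPKM in WT control livers. The islet hormone genes Ins1, Gcg and Sst were at or below 0.179 FPKM in all 7 control-diet libraries, and Ins2 reached 1.06 FPKM in KO control replicate 3 and 0.671 FPKM in WT control replicate 3. In bulk liver, fewer cells of a type and less RNA per cell cannot be told apart, and which cells carried these transcripts was not tested.

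On the ethanol diet the same 15 genes were low in both genotypes, with a summed level of 1.07, 0.706, 1.01 and 5.02 FPKM in KO ethanol livers, against 23.6, 4.3, 10.7 and 4.21 FPKM in WT ethanol livers. All 15 had a negative log2 difference there, from -1.05 to -0.24, and none was called (smallest adjusted p 0.882 in limma). KO means there were 8.78% (Zg16) to 30.5% (Clps) of WT means. At such low levels the log2(FPKM + 1) scale understates changes. Clps is the member that also lies on chromosome 17, beside Fkbp5. It was at 0.214, 0 and 0.539 FPKM in KO control livers, against 6.43, 5.57, 9.77 and 2.13 FPKM in WT control livers. Its log2 difference on the ethanol diet was -0.88, within the range of the other 14 genes. As a share of the WT mean, its KO mean there (30.5%) was above those of the other 14. That share rests on KO ethanol replicate 4, since the 4 KO ethanol livers were at 0, 0.0976, 0 and 1.72 FPKM.

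**Figure D4:**
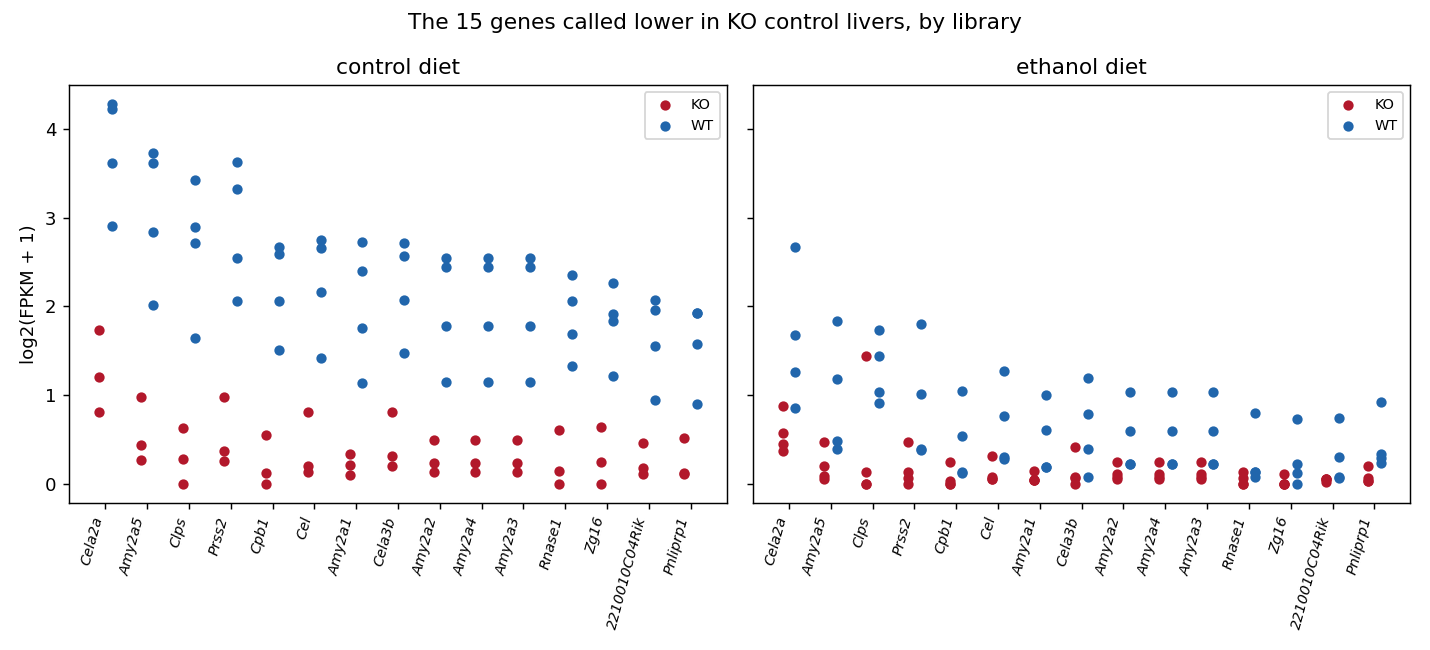
Log2(FPKM + 1) of the 15 genes called lower in KO control livers, by library, on the control diet (left) and the ethanol diet (right), with KO in red left of WT in blue. On the control diet every KO point of a gene lies below its WT points, and on the ethanol diet the groups overlap for 12 of the 15 genes.

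Acinar enzyme genes are transcribed through the factor PTF1, whose basic helix-loop-helix part binds E-boxes such as CACCTG. This motif was searched on both strands (CACCTG or CAGGTG) from 250 bases before to 50 bases after the RefSeq gene start. It occurred in 6 of the 13 lower genes with a listed promoter (46.2%) and in 20.2% of 32851 promoters. The 46.2% counts genes and the 20.2% counts promoters, so the shares are not a like comparison. The match says only that the letters are there. The promoters of Prss2 and Cel are shown because the 2 genes are among the 15 and carry 1 and 4 matches; capitals mark the motif (RefSeq, GRCm38.p6, chr6:41521526-41521825 on the plus strand for Prss2 and chr2:28563354-28563653 on the minus strand for Cel).
Prss2: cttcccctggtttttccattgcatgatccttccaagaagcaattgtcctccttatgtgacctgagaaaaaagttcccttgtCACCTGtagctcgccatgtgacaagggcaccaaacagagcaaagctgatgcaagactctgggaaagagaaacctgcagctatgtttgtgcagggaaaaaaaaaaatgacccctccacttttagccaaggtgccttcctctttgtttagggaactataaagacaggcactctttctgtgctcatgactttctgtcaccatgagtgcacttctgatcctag
Cel: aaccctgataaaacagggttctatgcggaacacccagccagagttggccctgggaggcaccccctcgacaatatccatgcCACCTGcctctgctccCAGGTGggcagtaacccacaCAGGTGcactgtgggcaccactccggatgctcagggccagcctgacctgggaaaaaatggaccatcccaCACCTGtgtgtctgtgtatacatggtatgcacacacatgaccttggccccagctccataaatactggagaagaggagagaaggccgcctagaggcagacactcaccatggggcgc

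The liver pathways on the lists held no called gene. Of 47 gene lists, 1 had a called member, the acinar one, and the other 46 had medians between -0.28 and 0.26 on the log2 scale. These lists were drawn up with earlier results of the same libraries known. Of 19 tested HSP90 co-chaperones and steroid receptors, the partners of FKBP51, the deleted gene itself was the single one with an unadjusted p under 0.05 (4.23% of all genes), so none of its partners was at that level. Stip1, the co-chaperone that links HSP70 to HSP90, was at 24.7, 20.4 and 14.3 FPKM in KO control livers, against 14.2, 14.1, 15.7 and 18 FPKM in WT control livers (log2 difference 0.31). The median of the list was 0.11.

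Glucocorticoid receptor targets had a median of -0.02, with 12 of 25 tested members above 0 and 13 below. Zbtb16, a zinc finger repressor induced by glucocorticoids, was at 17.5, 11.1 and 7.47 FPKM in KO control livers, against 7.87, 8.39, 6.49 and 2.02 FPKM in WT control livers (log2 difference 0.91, 95% interval 0.11 to 1.72, adjusted p = 1 in limma). Tat, tyrosine aminotransferase, the classic glucocorticoid-induced liver enzyme, was at 211, 141 and 111 FPKM in KO control livers, against 207, 289, 338 and 288 FPKM in WT control livers (log2 difference -0.89, 95% interval -1.83 to 0.06). Klf9, a receptor target that represses growth, was at 27.5, 25.4 and 30.2 FPKM in KO control livers, against 22.6, 21.9, 21.5 and 14.9 FPKM in WT control livers. The members leaned both ways, and the median 95% half-width of their differences was 1.16.

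The 21 tested members of the Hippo list, the kinase cascade that restrains YAP, lay between -0.18 and 0.25, with a median of 0.03 and a median 95% half-width of 0.33. The 14 tested YAP and TEAD targets had a median of -0.06. Cyr61, a matricellular target of YAP, was at 2.61, 2.82 and 2.45 FPKM in KO control livers, against 4.73, 5, 2.96 and 4.14 FPKM in WT control livers. Those groups did not overlap, and the log2 difference of -0.51 (95% interval -1.04 to 0.03) had a limma adjusted p of 1. Cxcl1 was at 2.77, 0.326 and 2.09 FPKM in KO control livers, against 2.24, 1.63, 16 and 4.23 FPKM in WT control livers. The groups overlapped, and the interval of the log2 difference, -3.73 to 1.58, allows a large difference either way.

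Lipid synthesis genes were mostly lower in KO in their estimates, without a called member. Of 22 tested fatty acid and triglyceride synthesis genes 19 were below 0, with a median of -0.27. Of 25 cholesterol synthesis genes all were below 0, with a median of -0.22. At an unadjusted limma p under 0.05, 1 of the 22 and 0 of the 25 were lower, against 1.22% of all genes. In a fit with a term for Xist-high libraries the medians were -0.32 and -0.09. On the ethanol diet they were 0.00 and 0.21. Scd1, the desaturase that makes oleate, was at 639, 157 and 551 FPKM in KO control livers, against 1533, 1241, 1270 and 582 FPKM in WT control livers (log2 difference -1.51, 95% interval -2.65 to -0.37, adjusted p = 0.719 in limma). WT control replicate 4 lay within the KO range. Apoa4, an apolipoprotein of triglyceride-rich particles, was at 67.3, 53.1 and 52.7 FPKM in KO control livers, against 223, 175, 156 and 76.2 FPKM in WT control livers (log2 difference -1.34, adjusted p = 0.535 in limma). PPAR alpha and fatty acid oxidation genes had a median of 0.22, with 22 of 27 above 0. That median was 0.09 after quantile normalization, -0.13 on a common sum and -0.05 on the ethanol diet. Hamp, which encodes the iron hormone hepcidin, was at 63, 781 and 779 FPKM in KO control livers, against 1725, 2526, 713 and 1188 FPKM in WT control livers (log2 difference -2.03, adjusted p = 1 in limma).

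In the growth hormone and pericentral lists the lowest p values belonged to members whose groups did not overlap, as held for 6.81% of all tested genes. Igf1, the growth hormone-dependent growth factor, was at 80.9, 77.8 and 70.6 FPKM in KO control livers, against 62.5, 51.8, 59.9 and 51.9 FPKM in WT control livers (log2 difference 0.43, limma adjusted p = 1). Socs2, the feedback inhibitor of growth hormone signalling, was at 26.8, 22.9 and 17.7 FPKM in KO control livers, against 15.6, 11.2, 13.1 and 1.74 FPKM in WT control livers (log2 difference 1.3, adjusted p = 1 in limma). Oat, a pericentral enzyme of ornithine breakdown, was at 124, 191 and 179 FPKM in KO control livers, against 233, 232, 273 and 277 FPKM in WT control livers (log2 difference -0.64, adjusted p = 0.737 in limma). None of these was called. The serine protease inhibitor gene Serpina3c, which is in a cluster of related genes, had 27, 43.1 and 38.8 FPKM in KO control livers, against 0.243, 0.423, 0.493 and 0.52 FPKM in WT control livers (log2 difference 4.69, limma adjusted p = 0.0702). On the ethanol diet it was at 34.4, 59.6, 27.2 and 39.1 FPKM in KO livers, against 1.91, 1.47, 75.4 and 28.3 FPKM in WT livers, where the groups overlapped.

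**Figure D5:**
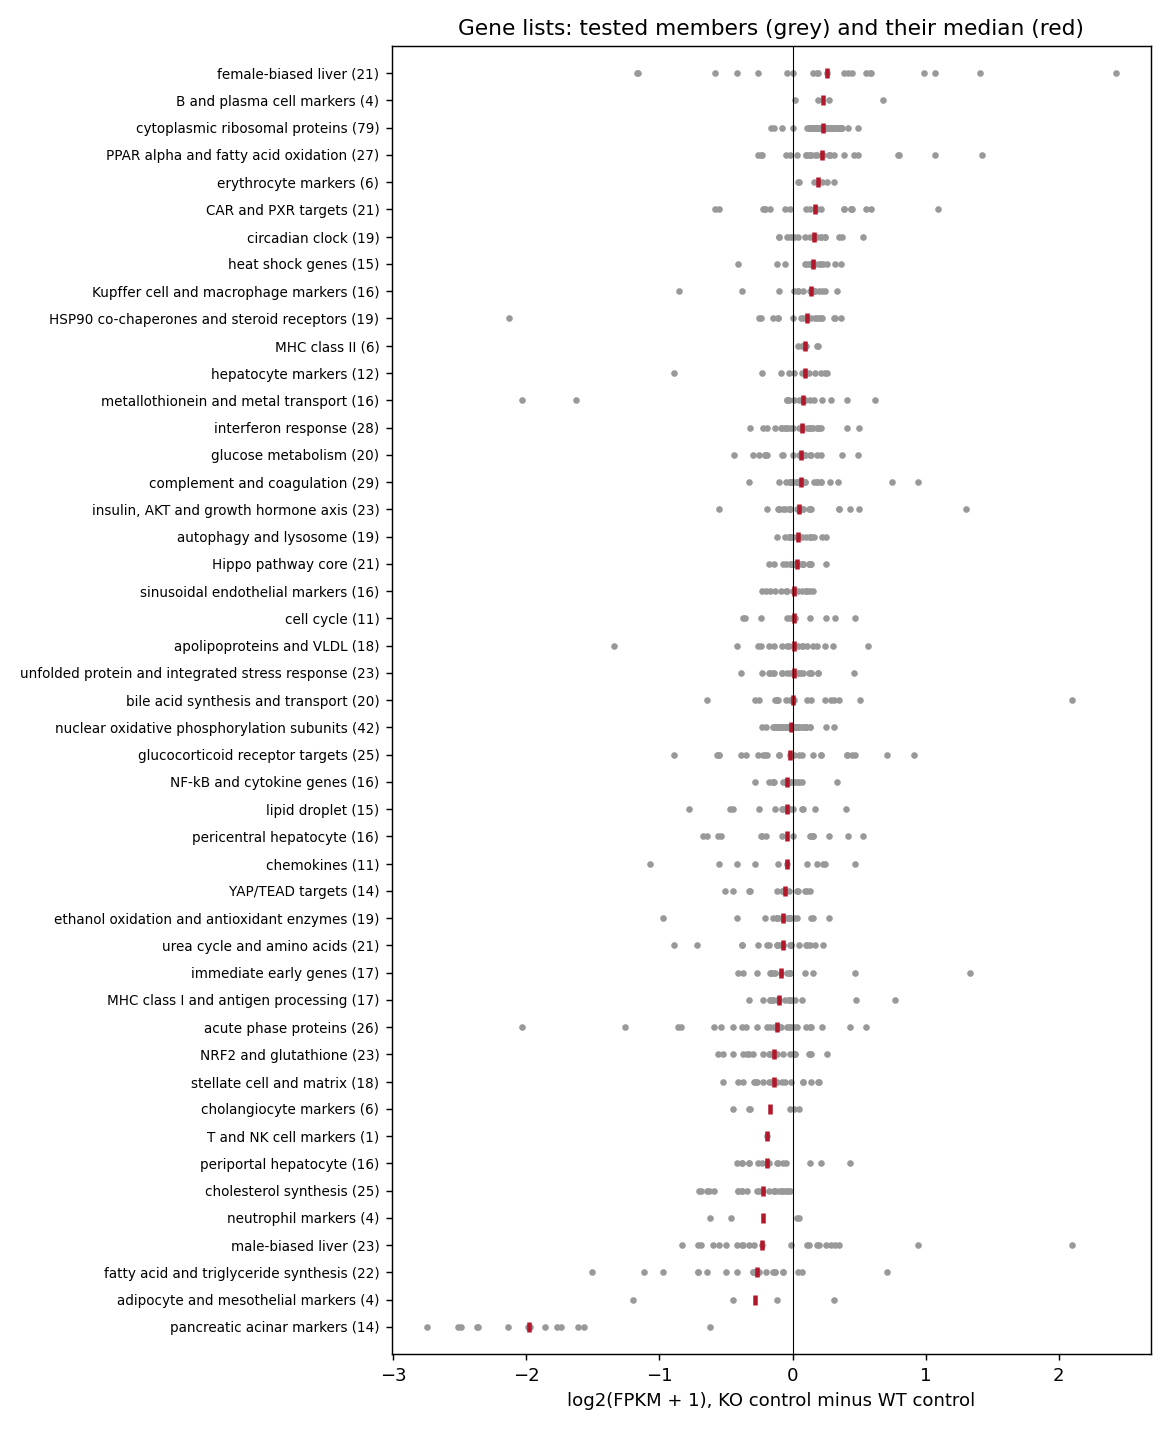
Log2(FPKM + 1) differences, KO control minus WT control, of the tested members (grey points) of 47 gene lists, with the median of each list as a red bar and the number tested in brackets. The acinar list has a median of -1.98, over members that passed the filter mostly through WT libraries, and the other 46 medians lie between -0.28 and 0.26.

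Cytoplasmic ribosomal protein genes mostly had small positive differences. Of 79 tested, 75 were above 0, 21 had an unadjusted p under 0.05 and higher values (3.01% of all genes did), none was called, and the median was 0.23. Rpl36, a subunit of the large ribosomal particle, was at 186, 195 and 182 FPKM in KO control livers, against 129, 139, 142 and 154 FPKM in WT control livers (log2 difference 0.42, limma adjusted p = 0.61). After quantile normalization the list's median was 0.12. After rescaling to a common sum, which lowers KO control replicate 1 most, it was -0.11, below 0. On the ethanol diet the median was -0.21. Among short structured RNAs, 32 of 33 ribosomal RNA genes tested had an unadjusted p under 0.05 and higher values in KO, with a median of 1.69, and none was called. Most are annotated as 5S RNA copies, which are near-identical to each other. The median was 2.35 without KO control replicate 1 and -0.79 on the ethanol diet.

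No marker of the liver cell types was called. Medians were 0.09 for hepatocyte, 0.14 for Kupffer cell and macrophage, -0.22 for neutrophil, 0.01 for sinusoidal endothelial and -0.14 for stellate cell and matrix genes. The summed Kupffer cell and macrophage level was 119 to 622 FPKM in KO control livers, with the highest value in KO control replicate 1, and 173 to 358 FPKM in WT control livers. Genes with a known sex bias in liver had medians of 0.26 (female-biased) and -0.23 (male-biased), which became -0.21 and 0.25 in a fit with Xist class as a term. Of the 25 called genes, 24 were also called in that fit.

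The genotype difference on the ethanol diet, measured in separate mice, called 14 genes (0.101%), 11 higher (0.0795%) and 3 lower (0.0217%) in KO. At an unadjusted p under 0.05, 1.7% of genes were higher and 3.3% lower there, and the groups of 2.44% did not overlap. Of the 10 genes higher in KO on the control diet, 7 were also called higher there: Ctse, Gm13443, 9030025P20Rik, Dynlt1b, Dynlt1c, Dynlt1-ps1 and LOC108169072. They are 28% of the control-diet calls and 50% of the ethanol-diet calls. None of the 15 lower genes was called on the ethanol diet. Whether a genotype difference depended on diet was tested by the interaction, which called 0 of 13840 genes in limma, with 553 at an unadjusted p under 0.05 (4%), 0.715% higher and 3.28% lower. Without KO control replicate 1 it called 43 genes, and without WT ethanol replicate 4 it called 1. Among the 25 called genes 16 had an unadjusted interaction p under 0.05, but these genes were chosen on the control-diet difference, which enters the interaction. For Ctse, Gm13443, Dynlt1b and Dynlt1c the interaction was -0.05, -0.08, -0.01 and -0.05 on the log2 scale. For Cpb1 it was 1.60, with an unadjusted p of 0.00104 and an adjusted p of 0.411.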

How the data were processed

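Total RNA of 15 mouse livers was made into libraries with an Agilent kit and sequenced, per the labels' protocols. The authors deposited FPKM per gene, made with TopHat, Cufflinks and Cuffdiff on mm9 per the submitters' processing notes, which give no versions. Gene positions in the table nevertheless match GRCm38: 99.53% of 41270 matched symbols overlap their GRCm38 gene, so positions are printed as deposited. Reads were divided among near-identical genes by the authors' software, and the deposited FPKM carry no counts, so depth was estimated from the spacing of low values.

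Genes that reached 1 FPKM in 3 or more of the 15 libraries (13840 of 45861) were tested on log2(FPKM + 1) with limma 3.58.1 in R 4.3.3 (eBayes with trend), as 4 group means, with Benjamini-Hochberg adjustment over all tested genes. All 15 libraries shared the estimate of spread of each gene. Fold changes on this scale understate changes of low genes. In a test on simulated data of the control-diet comparison, 64.8% of genes changed by 1 on the log2 scale were called. So were 96% of those changed by 2 and 0.0674% of unchanged ones. The simulation gave all 15 libraries equal spread and no floor at 0 FPKM, so these shares describe that setting only. Copies were aligned with BLAST 2.17.0+; tables and figures were made in Python 3.11.15 with matplotlib 3.10.9, pandas 2.3.3, numpy 2.4.6 and scipy 1.17.1.

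Groups follow the titles. One WT ethanol library, replicate 4, carries a conflicting genotype label. No label says that replicates came from separate litters, so p-values measure the spread between these livers. Named genes were Fkbp5, Cxcl1, Ctse, Ren1, Gm13443 and Xist, up to 12 called genes with the largest change each way, called genes of chromosome 17, genes called on both diets, and called or lowest-p members of each list. For the largest changes, only genes whose groups did not overlap and whose symbols were not provisional were taken. Other genes named (Serpina3c, Snhg9, Abca3, Tiam2, H2-Bl, Atp6v0c, Pm20d1 and the copies) were chosen after their values were seen. The comparison, the 47 lists and the tests were chosen with earlier results of these data known. Alternatives changed the pseudocount, filter, scaling, features, covariates, replicate block and library set. The sequence comparison of one gene with its copy is not reported here.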

Additional observations from a re-analysis of the deposited data

Results flagged for a closer look

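In groups of 4 control-diet libraries, 54 gene and group combinations were checked for a library far from the others, and chance flags about 1 in 20 groups. Ren1 was at 0.205 FPKM in WT control replicate 3, far above the other WT control libraries. Klf9 was at 14.9 FPKM in WT control replicate 4, far below the other WT control libraries. Outside the tested comparisons, the 7S RNA genes Rn7s1 and Rn7s2 were at 183764 and 183739 FPKM in KO control replicate 1 and were listed at 0 in every other library.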

How the results depend on the processing

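The 25 control-diet calls became 6 with a pseudocount of 0.1, 3 with a mean of at least 5 FPKM, 15 after quantile normalization, 669 with library weights, 4 with only the 7 control-diet libraries, 14 with WT ethanol replicate 4 placed with KO ethanol, and 62 with a sex term and without KO control replicate 1. Leaving out single libraries gave 1 to 50. The 14 ethanol-diet calls became 3 with a mean of at least 5 FPKM, 6 on a common sum, 22 with a sex term, 0 with WT ethanol replicate 4 placed with KO ethanol, 6 without chromosome 17, 7 with protein-coding genes and 7 without pseudogenes, and 4 to 15 with single libraries left out.

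The interaction, with 0 calls, gave 1 without a filter, 7 with library weights, 48 with a sex term and without KO control replicate 1, and 0 to 43 with single libraries left out. Within 10 Mb of Fkbp5 the 2 called genes became 1 with a pseudocount of 0.1, a mean of at least 5 FPKM or median-ratio scaling, 30 with library weights, 0 with only the 7 control-diet libraries or the moved library, and 0 to 3 with single libraries left out. The 1 list with a called member became 0 with a pseudocount of 0.1, a mean of at least 5 FPKM or only the 7 control-diet libraries, 2 on a common sum, 15 with library weights, 2 with a sex term and without KO control replicate 1, and 0 to 2 with single libraries left out.

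The Fkbp5 difference of -2.13 was -2.34 on a common sum and -2.35 with library weights, both past the threshold, and -2.46 to -1.82 with single libraries left out. Whether shared replicate numbers paired the samples could not be decided. Deviations of same-numbered KO and WT control libraries correlated at -0.03, 0.29 and 0.22, and not every library correlated best with its own number. KO control replicates 2 and 3 correlated positively only with WT control libraries of their own Xist class. Same-numbered control libraries also shared that class, so number and class cannot be told apart here. With the replicate block, 23 genes were called on the control diet (19 of the 25 among them) and 9 on the ethanol diet, 1 gene was called within 10 Mb of Fkbp5, 2 lists had a called member, and Fkbp5 differed by -2.28. Of the alternatives that tested the gene, Ctse was called in 34 of 36, Gm13443 in 34 of 35 and Glo1 in 26 of 36. Where counts moved, the cause was not tested. No called value changed sign in any alternative run. The protein-coding, pseudogene and combined sex-term alternatives were chosen after seeing the data. FPKM without counts leave the precision of low genes unknown.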

Other observations

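Among RNA classes not described above, snoRNA genes had a median log2 difference of 0.71 (65 tested, 13 with an unadjusted p under 0.05 and higher values in KO, against 3.01% of all genes, 1 called, Snora7a), and 0.92 without KO control replicate 1. Genes annotated as snRNA had a median of 0.22 (15 tested, 0 called in limma, 7 at an unadjusted p under 0.05 and higher values), and 0.45 without KO control replicate 1. Transfer RNA genes had a median of 1.12 (61 tested, 0 called in limma, 2 at an unadjusted p under 0.05). The 88 miRNA genes tested had a median of -0.07. The ethanol-diet medians were -0.08 for snoRNA, -0.55 for snRNA, -0.25 for transfer RNA and 0.19 for miRNA genes. Rn5s, a 5S RNA gene, was at 59.1, 291 and 168 FPKM in KO control livers, against 78.1, 41.9, 31.1 and 33.3 FPKM in WT control livers, and the groups overlapped.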
